A study of Mus musculus with 12 samples.

Results

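Inhibition of EZH2 was examined in oligodendrocyte precursor cells (OPCs) that had been stimulated with IFN-γ. The comparison took 6 of the 12 RNA-seq libraries of the series, the 3 IFN-γ libraries and the 3 IFN-γ + EZH2i libraries, chosen by their treatment labels. Both groups received IFN-γ at 100 ng/ml for the last 6 h, and they differed in EPZ011989 (EZH2i), a small-molecule inhibitor of the EZH2 methyltransferase, which was absent in the first group and present in the second, at 1.5 μM over 4 days and renewed each 48 h. Primary OPCs of mouse pups at P4 to P6 were used throughout, in a medium with PDGF-AA and bFGF that keeps them dividing. The labels call the cells Sox10GFP+ OPCs, the growth protocol allows either sorting for Sox10-GFP or magnetic selection for CD140a, and brains of several pups went into each culture. The tag EAE, the name of a disease model, is also among the labels, whereas the protocol describes cultures only. Replicates 1, 2 and 3 came from different litters. The remaining 6 libraries, Ctr and EZH2i without IFN-γ, gave the same drug contrast at rest.

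EZH2 is the catalytic subunit of Polycomb repressive complex 2, which deposits H3K27me3, a histone mark of silent developmental genes. OPCs divide and, when they differentiate, switch on a myelin program that includes Mbp and Cnp, through an intermediate stage marked by Gpr17 and Enpp6. IFN-γ is a cytokine of T cells and natural killer cells that activates interferon response genes. Transcription factor (TF), MHC and chemokine genes are given here as counts, apart from the TF genes Sox10, Myc and Myrf, and genes outside these families, above all those that fell, are described in full.

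The 6 libraries held between 24820529 and 66546017 counts, with a median of 35232504, and replicates of one group differed far beyond counting error, with a chi-square of 76.7 to 191.5 per gene. Levels are TMM-normalized counts scaled to a common library size (CPM), and 18995 genes passed a filter on low counts. A pair of edgeR fits of the 12 libraries is given side by side. The group-only fit has the treatment group as its only term, and the paired fit adds the replicate number, because IFN-γ and IFN-γ + EZH2i libraries of the same number deviated together from their group means, with correlations of 0.741, 0.638 and 0.748. A gene was called at an adjusted p under 0.05. The p-values measure the spread between these cultures. Ezh2 mRNA itself was at 41.0, 49.2 and 49.5 CPM with IFN-γ and at 35.1, 44.2 and 35.01 CPM with IFN-γ + EZH2i. These ranges overlapped and neither fit called Ezh2 (adjusted p of 0.899 group-only and 0.14 paired). None of the 12 PRC2 subunit genes, Eed and Suz12 among them, was called in either edgeR fit or by DESeq2. At an unadjusted p under 0.05 the paired fit had 1 of them higher and 3 lower, and the group-only fit had none. The drug acts on the enzyme, so the mRNA level does not check the treatment labels.

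The 6 OPC markers were all expressed, with summed levels of 4214 to 5708 CPM with IFN-γ and 3837 to 4555 CPM with IFN-γ + EZH2i. In the paired fit 1 of the 6 was called lower and 4 were lower at an unadjusted p under 0.05. The group-only fit called none. Their median log2 fold change was -0.33, with 5 of 6 values below 0. The 1 call became 0, 2, 0, 0, 0 and 0 without IFN-γ replicates 1, 2 and 3 and IFN-γ + EZH2i replicates 1, 2 and 3. Sox10 varied more between replicates than between groups, at 888, 315 and 252 CPM with IFN-γ and 526, 237 and 209 CPM with both. Among markers of other cells, the 9 astrocyte genes summed to 1575 to 3195 CPM and 2073 to 3639 CPM, and Gfap, Aqp4 and Aldoc of these 9 were called higher in the paired fit. The 3 became 1, 1, 3, 1, 2 and 1 without IFN-γ replicates 1, 2 and 3 and IFN-γ + EZH2i replicates 1, 2 and 3. The 9 neuron markers summed to 1311 to 1964 CPM and 1533 to 2270 CPM, with 4 called higher in the paired fit and 1 in the group-only fit. The 4 became 2, 2, 2, 2, 3 and 3 when the libraries were left out in the same order. Of the 11 microglia markers, 3 passed the filter on low counts, 1 had no count in any of the 6 libraries, and the sum was 7.44 to 11.2 CPM against 7.44 to 10.7 CPM. Endothelial, pericyte and fibroblast, Schwann cell and ependymal markers each summed to under 43 CPM in each library. Of these lists 4, 6, 4 and 2 genes were tested, and 2, 1, 3 and 1 had a log2 fold change below 0. The medians were -0.03, 0.37, -0.21 and -0.07. Flt1, Kcnj8 and Ngfr, each from a different one of the first 3 lists, were called higher in the paired fit. Of all genes, the paired fit called 3.11% higher and 0.827% lower. The part of other cells in the results was not tested. In bulk RNA, fewer cells of a type and less RNA per cell cannot be told apart.

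Far more genes were called higher than lower with EZH2i. The group-only fit called 66 of the 18995 genes higher (0.347%) and 1 lower (0.00526%), while 822 and 398 had an unadjusted p under 0.05. The paired fit called 591 higher (3.11%) and 157 lower (0.827%). All 67 genes of the group-only fit were also called in the paired fit. Of the 591, 95 were TF genes, 10 MHC genes and 4 chemokine genes, which left 482 others. The 157 included 13 TF genes, no MHC gene and no chemokine gene, which left 144, of which 143 were protein-coding. DESeq2 without the pairing called 254 higher and 27 lower. The count of 157 rested on single libraries: it was 20 without IFN-γ replicate 1, 52 without IFN-γ replicate 2, 22 without IFN-γ + EZH2i replicate 2 and 67 without IFN-γ + EZH2i replicate 3. The count of 591 was 270, 281, 380, 252 and 346 without IFN-γ replicates 1, 2 and 3 and IFN-γ + EZH2i replicates 2 and 3.

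The genes that fell were mostly well expressed and changed little, whereas the genes that rose started low. Genes called lower in the paired fit had a median IFN-γ level of 61.6 CPM, against 6.12 CPM for those called higher and 12.8 CPM for all genes tested. The median log2 fold change outside the named families was -0.52 for the 144 lower genes and 0.77 for the 482 higher genes. Only 13 of the 157 lower genes passed a 2-fold change, against 259 of the 591 higher genes. In 2 of the 157, all IFN-γ + EZH2i libraries were at the detection floor of 3 counts. In 35 of the 591, all IFN-γ libraries were at that floor. A gene at the floor with IFN-γ can be called only in the higher direction. The lower start and larger changes of the higher genes are therefore partly set by how genes were called. The 3 libraries of one group all lay below the 3 of the other in 74 of the 157, and 810 of all genes (4.26%) had that property in this direction. For the genes called higher it was 423 of 591, against 1154 of all genes (6.08%).

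**Figure D1:**
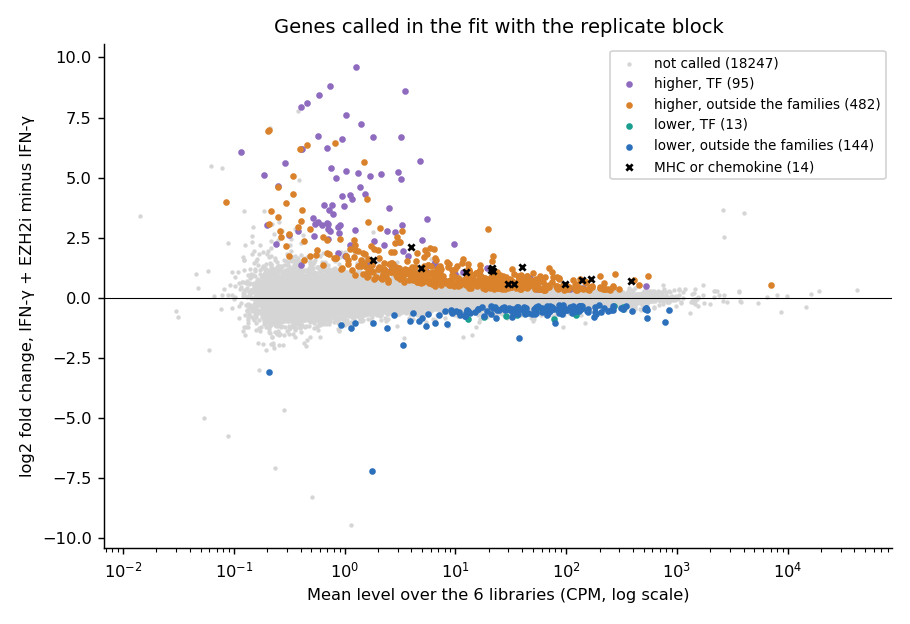
Each point is 1 of 18995 genes, with the mean level over the 6 libraries on the horizontal log axis (CPM) and the group-only log2 fold change, IFN-γ + EZH2i minus IFN-γ, on the vertical axis. Colors mark calls of the paired fit: the 144 lower genes outside the named families sit close to the zero line at higher levels, while the 482 higher genes reach large changes at low levels.

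Myelin genes made up the list with the most calls in the lower direction in the paired fit of the 12 libraries, 10 against 7 for ribosome biogenesis genes. With the 6 libraries alone the order was the other way, at 12 against 23. Of 24 listed genes, 23 were tested and 10 were called lower in the paired fit, among them Enpp6, Mbp, Tmem88b, Ugt8a, Cnp, Cldn11, Gjc3, Mag and Tspan2. None was called higher. The share of all genes called lower was 0.827%. The group-only fit of edgeR called none of the 23, although 7 were lower at an unadjusted p under 0.05, and DESeq2 without the pairing called 2. The list had a median log2 fold change of -0.51, against -0.01 over all genes, with 21 of 23 values below 0. Its summed level was 4212 to 5847 CPM with IFN-γ and 2797 to 4183 CPM with IFN-γ + EZH2i, and its median change was -0.34, -0.67 and -0.48 in the pairs of replicates 1, 2 and 3. The count of 10 was 5, 5 and 6 without IFN-γ replicates 1, 2 and 3 and 3 without IFN-γ + EZH2i replicate 2. Astrocyte markers moved the other way in the same libraries, as given above, and their part in these values was not tested.

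Enpp6, a choline phosphodiesterase that marks newly forming oligodendrocytes, was at 132, 113 and 79.0 CPM in IFN-γ replicates 1, 2 and 3 and at 51.8, 46.2 and 56.7 CPM in the corresponding IFN-γ + EZH2i libraries. The ranges were separate, and the drop was smallest in replicate 3. Its log2 fold change was -1.07 ± 0.20 (SE), with an adjusted p of 0.0563 in the group-only fit and 0.00224 in the paired fit, where each library could be left out without loss of the call. Tmem88b, which encodes a transmembrane protein, had 38.1, 27.9 and 24.1 CPM with IFN-γ and 22.9, 13.3 and 14.3 CPM with both. Every IFN-γ library lay above every IFN-γ + EZH2i library, though replicate 1 was high in both groups. Its change was -0.84 ± 0.26 (adjusted p = 0.361 group-only and 0.00113 paired, called without any one library). Ugt8a makes the myelin lipid galactosylceramide and was at 193, 183 and 189 CPM with IFN-γ and 121, 114 and 140 CPM with both. The IFN-γ values lay close together and well above the others. The fits gave a log2 fold change of -0.59 ± 0.13 with an adjusted p of 0.125 group-only and 0.00392 paired, and the paired call held without any one library.

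The promoters of Enpp6 and Tmem88b are shown because these were the myelin genes with the firmest paired calls. They come from RefSeq on GRCm38.p6, run 5′ to 3′ from 250 bases before to 50 bases after the start of the gene on its own strand, and CG dinucleotides are in capitals. The Enpp6 window is chr8:46986637-46986936 on the plus strand, and the Tmem88b window is chr4:155785825-155786124 on the minus strand.
Enpp6: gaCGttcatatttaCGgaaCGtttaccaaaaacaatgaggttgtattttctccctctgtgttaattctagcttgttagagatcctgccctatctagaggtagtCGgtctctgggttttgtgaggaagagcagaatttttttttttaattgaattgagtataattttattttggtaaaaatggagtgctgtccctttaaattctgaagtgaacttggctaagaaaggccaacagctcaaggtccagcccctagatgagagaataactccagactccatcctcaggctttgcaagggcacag
Tmem88b: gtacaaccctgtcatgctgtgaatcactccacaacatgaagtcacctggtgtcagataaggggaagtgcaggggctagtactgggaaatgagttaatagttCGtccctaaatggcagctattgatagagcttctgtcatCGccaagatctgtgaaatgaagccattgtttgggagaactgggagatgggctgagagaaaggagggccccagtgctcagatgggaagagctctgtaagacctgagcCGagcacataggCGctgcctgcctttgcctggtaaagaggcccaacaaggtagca
Each held 4 CG dinucleotides. At least that many were present in 68.6% of the 32851 RefSeq windows of this length, whose median was 7.

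The structural myelin genes fell in the paired fit with less stable calls. Mbp, which encodes the protein that compacts the myelin membrane, was at 738, 705 and 645 CPM with IFN-γ and at 571, 330 and 257 CPM with IFN-γ + EZH2i. The groups did not overlap, and replicate 1 kept most of its level. Its log2 fold change was -0.85 ± 0.26 (adjusted p = 0.351 group-only and 0.0124 paired), and the paired call was lost without IFN-γ replicate 3 (0.0629), IFN-γ + EZH2i replicate 2 (0.0855) or IFN-γ + EZH2i replicate 3 (0.0741). Cnp, a phosphodiesterase of the myelin cytoplasm, went from 486, 554 and 372 CPM to 344, 323 and 292 CPM. Its groups did not overlap. The change was -0.56 (adjusted p = 0.264 group-only and 0.0118 paired), and the paired call was lost without IFN-γ replicate 1 (0.0559), IFN-γ replicate 2 (0.0743) or IFN-γ + EZH2i replicate 2 (0.0926). The paired calls of Mag and Cldn11 were lost without each library in turn. Genes of late myelin were not called: Mobp was at 49.1, 12.7 and 50.05 CPM against 45.5, 6.44 and 11.4 CPM, and Mog at 12.3, 7.33 and 9.72 CPM against 11.5, 3.19 and 5.79 CPM. Both overlapped between groups. On the per-length TPM scale the mean level of Mbp went from 366 ± 54.2 (SD, n = 3) to 188 ± 106 and that of Cnp from 160 ± 44.3 to 99.8 ± 15.0.

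Of 18 listed OPC genes, 2 were called lower in the paired fit and none higher, beside 0.827% of all genes called lower. At an unadjusted p under 0.05 the paired fit had 6 of the 18 lower and 1 higher. The median log2 fold change was -0.06. Gpr17, a G protein-coupled receptor of precursors committed to differentiation, was at 1422, 1079 and 619 CPM with IFN-γ and at 643, 454 and 467 CPM with IFN-γ + EZH2i. IFN-γ replicate 3 lay below IFN-γ + EZH2i replicate 1, so the groups overlapped, but each pair dropped. The change was -0.997 ± 0.30 (adjusted p = 0.319 group-only and 0.00295 paired, called without any one library). Neu4, a sialidase, was at 61.8, 64.6 and 54.8 CPM against 31.3, 35.2 and 45.9 CPM without overlap (-0.69, adjusted p = 0.131 and 0.0216). Its paired call was lost without replicate 1 or 2 of either group, with adjusted p between 0.0667 and 0.121. Pdgfra, the receptor that keeps OPCs dividing, was at 676, 536 and 934 CPM against 491, 480 and 616 CPM, overlapped and was not called (0.876 and 0.0579). Cspg4 was at 448, 269 and 349 CPM against 460, 324 and 323 CPM.

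**Figure D2:**
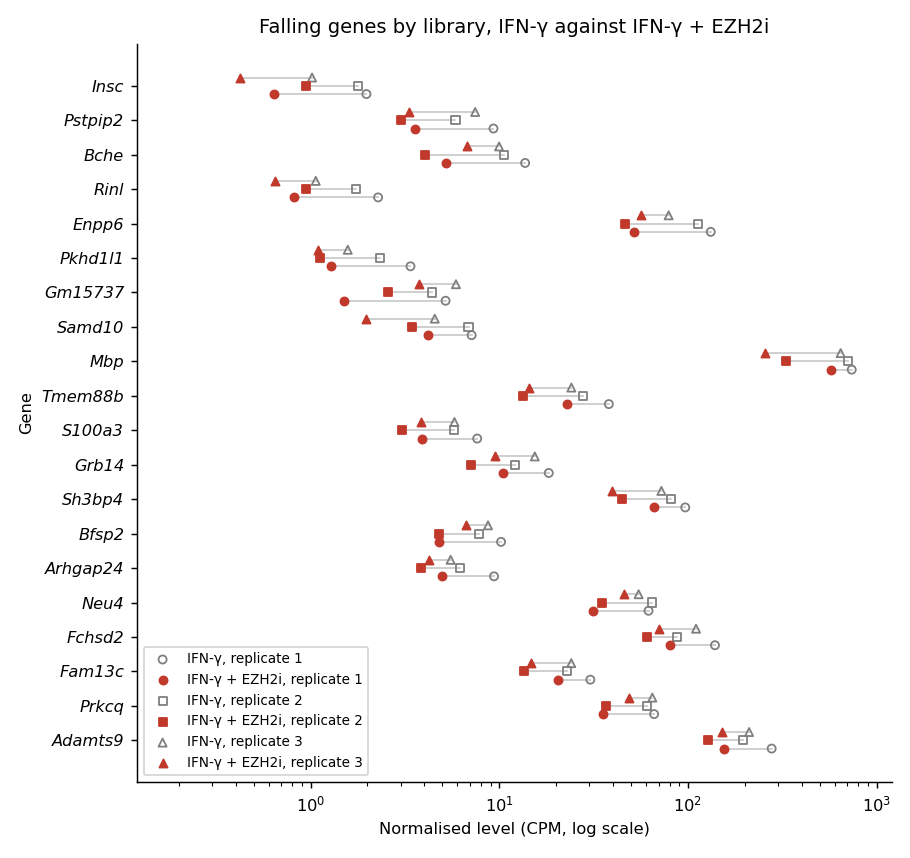
Levels of the 20 falling genes named by rule in each library, on a log axis in CPM, with open gray marks for IFN-γ, filled red marks for IFN-γ + EZH2i, and 1 marker shape and connecting line for each replicate. In all 20 genes the 3 red marks lie left of the 3 gray marks, which the rule required.

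Outside the myelin program, the falling genes with the firmest calls had varied known functions. Among the 20 falling genes named by rule, the log2 fold change ran from -1.25 to -0.66. All 20 were called in the paired fit, as the rule required, 1 in the group-only fit and 7 by DESeq2 without the pairing. Leaving out one library at a time kept the paired call of 7 in each case: Pstpip2, Bche, Enpp6, Tmem88b, Fchsd2, Prkcq and Adamts9. The number of the 20 still called was 9, 10 and 14 without IFN-γ replicates 1, 2 and 3 and 13, 7 and 12 without IFN-γ + EZH2i replicates 1, 2 and 3.

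Pstpip2, an adaptor that bends membranes and binds actin regulators, was the only gene lower in the group-only fit. It stood at 9.32, 5.86 and 7.45 CPM with IFN-γ and at 3.59, 3.01 and 3.33 CPM with IFN-γ + EZH2i. The groups were far apart relative to their spread. The change was -1.19 ± 0.21, with an adjusted p of 0.0401 group-only and 0.00203 paired. Its group-only call was lost without any one of the 6 libraries (0.0581 to 0.215), and its paired call was kept in each case.

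Bche encodes butyrylcholinesterase, a hydrolase of choline esters, and was at 13.7, 10.6 and 9.98 CPM with IFN-γ and at 5.21, 4.04 and 6.73 CPM with both (-1.09 ± 0.25, adjusted p = 0.138 group-only and 0.00312 paired). Prkcq encodes protein kinase C theta and was at 66.2, 61.0 and 64.8 CPM against 35.4, 36.7 and 48.9 CPM (-0.67 ± 0.14, 0.0872 and 0.00303). Both were separate between groups, and in both IFN-γ + EZH2i replicate 3 was the highest of its group. Fchsd2, a protein of endocytosis, was at 139, 87.8 and 110 CPM against 80.0, 60.8 and 70.5 CPM (-0.67 ± 0.17, 0.169 and 0.0041). Its levels differed between replicates in both groups in the same order.

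Adamts9, a secreted protease that cuts matrix proteoglycans such as versican, was at 278, 196 and 211 CPM with IFN-γ and at 155, 127 and 151 CPM with IFN-γ + EZH2i. The 3 IFN-γ libraries lay above the 3 others, with replicate 1 highest in both groups. The change was -0.66 ± 0.17 (adjusted p = 0.218 group-only and 0.00231 paired). At rest its mean level was 136 CPM without the drug and 130 CPM with it. The difference between the drug effects with and without IFN-γ was -0.59 ± 0.24 on the log2 scale, with an unadjusted p of 0.0329 and an adjusted p of 0.9999 in the group-only fit. Gm15737, another of the 20, lies on the opposite strand within Adamts9 (chr6:92869357-92884411 inside chr6:92772699-92943492, GRCm38), and whether counting used the strand is not given in the sources used here, so its reads and those of Adamts9 may not be separable.

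The other falling genes of the rule had lower levels or calls that single libraries carried. Grb14, an adaptor that binds the insulin receptor, was at 18.3, 12.1 and 15.4 CPM against 10.4, 7.11 and 9.52 CPM (-0.76 ± 0.21, adjusted p = 0.264 group-only and 0.0118 paired). The groups did not overlap, and the paired call was lost without IFN-γ replicate 1, IFN-γ + EZH2i replicate 2 or IFN-γ + EZH2i replicate 3. Sh3bp4, a regulator of receptor trafficking, was at 96.8, 81.0 and 72.3 CPM against 65.8, 44.5 and 39.5 CPM (-0.74 ± 0.20, 0.243 and 0.0146), with a paired adjusted p of 0.0776 to 0.0908 without replicate 2 or 3 of the treated group or 1 or 2 of the other. Insc, an adaptor that orients the mitotic spindle, had the largest drop of the 20 but low levels, at 1.98, 1.78 and 1.02 CPM against 0.641, 0.942 and 0.422 CPM, and its paired call (adjusted p = 0.0249) was lost without each library in turn. Samd10, Rinl, Pkhd1l1, S100a3, Bfsp2, Arhgap24 and Fam13c completed the 20, with mean levels between 1.69 and 25.8 CPM with IFN-γ.

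Among secreted factors, guidance molecules and matrix genes, the paired fit called 1 of 73, 3 of 71 and 2 of 112 lower, beside 0.827% of all genes. Of all genes it called 3.11% higher. Bmp4, a ligand that directs precursors away from the oligodendrocyte fate, was at 12.7, 9.003 and 4.64 CPM with IFN-γ and at 4.83, 4.29 and 3.50 CPM with both. The lowest IFN-γ library lay under the highest IFN-γ + EZH2i library. Its change was -1.06 ± 0.41 (adjusted p = 0.624 group-only and 0.00706 paired, called without any one library), and it was the 1 morphogen gene of 73 tested that was called lower, beside 9 called higher. The count of lower calls was 2 without IFN-γ replicate 2. The 9 became 6, 5, 7, 7, 5 and 6 without IFN-γ replicates 1, 2 and 3 and IFN-γ + EZH2i replicates 1, 2 and 3. Axon guidance genes included 3 called lower, Epha5, Plxnb3 and Sema3d, and 10 called higher. The 3 became 1, 2, 3, 6, 1 and 3 in the same order, with Epha5 still called in 4 and Plxnb3 in 3 of the 6 cases. Sema3d, a secreted semaphorin, was at 146, 81.3 and 105 CPM against 91.7, 47.6 and 75.3 CPM, with overlapping groups and a drop in each pair (-0.63 ± 0.29, 0.784 and 0.00345). Its paired call was kept without any one library. The matrix list had Adamts9 and Col20a1 lower and 13 genes higher. The 2 became 1, 1, 2, 2, 1 and 3, and Col20a1 was still called in 3 of the 6 cases. Pyy, a peptide hormone gene, was at 7.64, 7.08 and 1.53 CPM against 1.15, 1.76 and 1.22 CPM, and its paired call (adjusted p = 0.0384) was lost without replicate 1 or 2 of either group.

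Tgfbi, Myc, Myrf, Fyn and Tns3 were picked after their values were seen, because they were among the 157. Tgfbi, a matrix protein gene, was at 74.8, 79.1 and 16.2 CPM with IFN-γ against 26.7, 17.6 and 9.49 CPM with both (-1.66 ± 0.67, adjusted p = 0.659 group-only and 0.0229 paired). Its groups overlapped because IFN-γ replicate 3 was low. The growth regulator Myc was at 151, 81.0 and 69.6 CPM against 84.1, 45.7 and 31.6 CPM (-0.91, paired adjusted p = 0.0249), and the myelin regulator Myrf at 57.5, 30.8 and 19.7 CPM against 37.2, 13.9 and 12.2 CPM (-0.78, 0.0233). Both dropped in each pair with overlapping groups. Fyn, a kinase of oligodendrocyte differentiation, changed by -0.43 (paired adjusted p = 0.0375), and the focal adhesion gene Tns3 by -0.48 (0.0191). The group-only fit, whose single lower call was Pstpip2, called none of these genes. Results with one library left out are not given for them.

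Ribosome biogenesis genes, a list drawn up with their values in view, had small negative changes. Of 69 tested genes, 7 were called lower in the paired fit and none higher, the group-only fit and DESeq2 called none (13 lower at an unadjusted group-only p under 0.05), the median log2 fold change was -0.18, and 67 of 69 values were below 0. The summed level was 6836 to 7547 CPM with IFN-γ and 5897 to 6631 CPM with IFN-γ + EZH2i. Ppan, which acts in assembly of the large ribosomal subunit, was at 126, 92.4 and 71.9 CPM against 84.4, 65.3 and 60.5 CPM (-0.47, adjusted p = 0.899 group-only and 0.0148 paired), with overlapping groups. The paired fit called 0.827% of all genes lower. The count of 7 was 0, 1 and 2 without IFN-γ replicates 1, 2 and 3 and 1 without IFN-γ + EZH2i replicate 2 or 3. No proliferation gene of 27 was called in either edgeR fit or by DESeq2, none had an unadjusted p under 0.05, and their median change was -0.05. Replication-dependent histone genes (65 tested) and mitochondrially encoded genes (13 tested) also had no call in these fits, with medians of -0.10 and -0.15. At an unadjusted p under 0.05 the paired fit had 1 histone gene higher and 5 lower, and 2 mitochondrial genes higher.

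**Figure D3:**
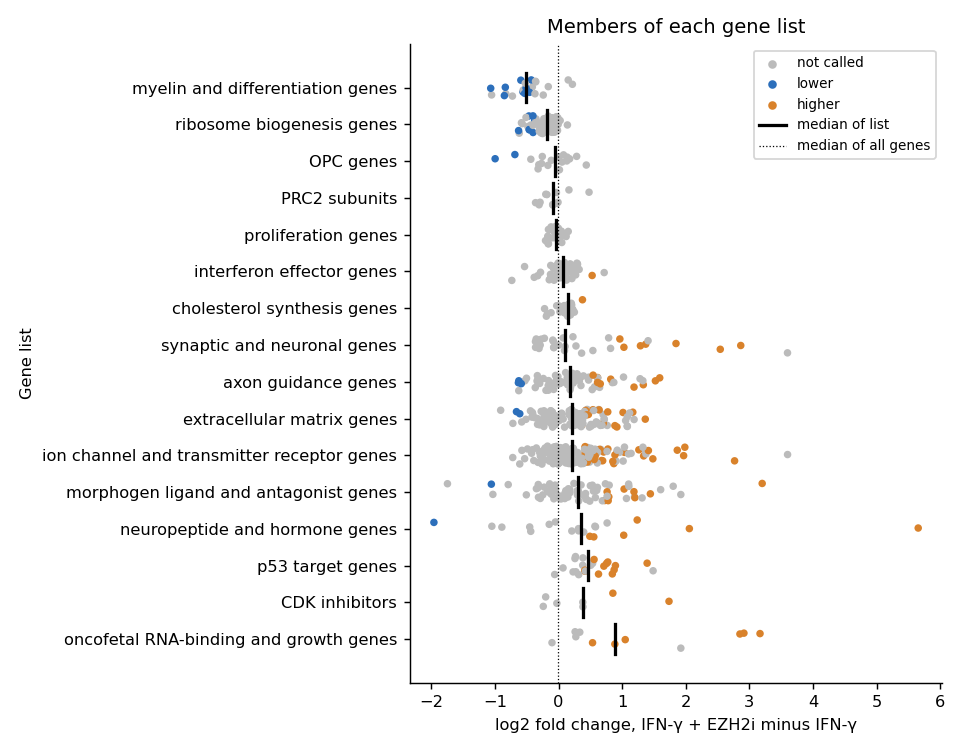
Group-only log2 fold changes, IFN-γ + EZH2i minus IFN-γ, of the members of 16 gene lists, with 1 point per gene, blue and orange for genes called lower or higher in the paired fit, a black bar at the list median and a dotted line at the median of all genes (-0.01). The myelin list lies furthest to the left, with a median of -0.51, and the oncofetal list furthest to the right, with 0.89.

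Among the genes that rose, 39 of the 66 in the group-only fit were outside the TF, MHC and chemokine families, 34 protein-coding and 5 noncoding. The 12 largest changes of coding genes that the rule named ran from 1.74 to 5.66. All 12 were called in both fits and by DESeq2. Leaving out one library at a time kept all 12 in the paired fit, and kept Adcyap1, Igf2bp3, Raet1e and E030030I06Rik in the group-only fit, where the other 8 each lost the call without 1 library or more.

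Cell cycle inhibitor genes at the Ink4a/Arf locus rose. Cdkn2a, which encodes the inhibitors Ink4a and Arf from separate starts, was at 9.01, 12.97 and 8.02 CPM with IFN-γ and at 38.8, 39.0 and 22.3 CPM with IFN-γ + EZH2i. The lowest treated library was above the highest untreated one. Its log2 fold change was 1.74 ± 0.31 (adjusted p = 0.0401 group-only and 7.57e-05 paired), and the group-only call was kept only without IFN-γ + EZH2i replicate 3 (0.0207), with 0.117 to 0.191 when any other library was left out. The adjacent Cdkn2b, an inhibitor of the same kinases, was at 18.5, 12.5 and 14.1 CPM against 34.1, 24.5 and 22.8 CPM, without overlap (0.85 ± 0.26, 0.354 and 0.00249). Its paired call was kept without any one library. The other 5 of the 7 listed inhibitors were not called, among them Cdkn1a, at 118, 93.0 and 53.2 CPM against 163, 117 and 65.3 CPM.

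The 2 promoters of Cdkn2a are shown because its transcripts changed by different amounts. Both windows lie on the minus strand of chr4 (GRCm38.p6, RefSeq), cover 250 bases before to 50 bases after a start, and have CG dinucleotides in capitals. The upstream window, chr4:89294570-89294869, belongs to the Arf start, and the downstream window, chr4:89282143-89282442, to the Ink4a start.
Cdkn2a upstream: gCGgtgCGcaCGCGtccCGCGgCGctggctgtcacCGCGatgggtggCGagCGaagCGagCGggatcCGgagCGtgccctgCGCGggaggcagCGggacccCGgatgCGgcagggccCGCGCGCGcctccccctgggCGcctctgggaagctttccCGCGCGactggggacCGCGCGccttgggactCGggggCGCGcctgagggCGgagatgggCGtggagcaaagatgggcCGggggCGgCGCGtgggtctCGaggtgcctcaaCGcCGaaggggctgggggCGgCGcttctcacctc
Cdkn2a downstream: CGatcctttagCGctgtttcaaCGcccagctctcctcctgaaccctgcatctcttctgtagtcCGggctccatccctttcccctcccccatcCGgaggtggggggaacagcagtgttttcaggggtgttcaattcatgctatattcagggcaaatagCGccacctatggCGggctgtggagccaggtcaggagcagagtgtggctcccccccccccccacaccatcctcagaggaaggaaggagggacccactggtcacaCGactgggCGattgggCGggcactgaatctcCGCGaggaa
The upstream window held 45 CG dinucleotides, a number reached by 1.93% of all RefSeq windows, and the downstream window held 12, reached by 39.6%.

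The Ink4a transcript changed more than the Arf transcript. Cdkn2a-201, which starts at the downstream promoter, was at 0.243, 0.985 and 0.741 CPM with IFN-γ and at 8.86, 12.3 and 6.79 CPM with IFN-γ + EZH2i, a ratio of means of 14.2. Cdkn2a-202, from the upstream promoter, was at 8.77, 11.99 and 7.28 CPM and at 29.9, 26.7 and 15.5 CPM, a ratio of 2.57. Both transcripts were separate between groups, and the ratio was larger for the downstream start in each pair (36.5, 12.5 and 9.17 against 3.41, 2.23 and 2.13). Its share of the gene's CPM went from 6.56% to 27.9%. These transcript values have no test, and because the transcripts share exons, the split is an estimate of Salmon.

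**Figure D4:**
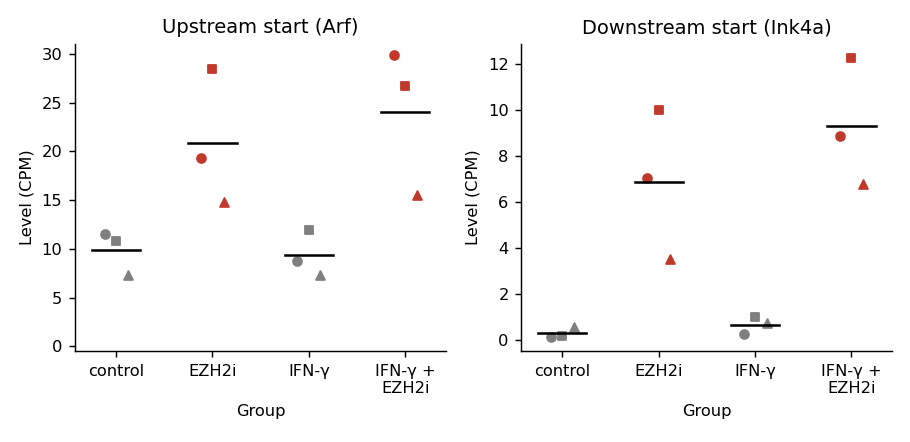
Levels in CPM of the upstream (Arf) and downstream (Ink4a) transcripts of Cdkn2a in the 12 libraries, by group, with 1 marker shape per replicate number, gray without and red with EZH2i, and a bar at the group mean. With IFN-γ the mean of the downstream transcript is 0.656 CPM without and 9.31 CPM with EZH2i, and at rest it is 0.276 and 6.86 CPM.

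Some target genes of the p53 tumor suppressor rose in the paired fit. Of 24 listed genes, 11 were called higher and none lower, 2 of them also in the group-only fit, with a median log2 fold change of 0.46 and 23 values above 0. The paired fit called 3.11% of all genes higher. The count of 11 was 7 without IFN-γ replicate 1, IFN-γ replicate 2 or IFN-γ + EZH2i replicate 2. Ccng1, an atypical cyclin, was at 306, 292 and 308 CPM with IFN-γ and at 478, 563 and 489 CPM with both. The groups were far apart (0.75 ± 0.12, adjusted p = 0.0249 group-only and 0.000773 paired). Trp53inp1, a nuclear cofactor of p53, was at 139, 155 and 133.6 CPM against 218, 331 and 246 CPM (0.89 ± 0.16, 0.0448 and 0.000924). Pmaip1, the apoptosis gene also called Noxa, was at 8.11, 5.17 and 8.15 CPM against 19.4, 16.6 and 20.3 CPM (1.39 ± 0.31, 0.117 and 0.000867). Neither had overlapping groups. The group-only call of Ccng1 was kept only without IFN-γ + EZH2i replicate 1 or 3 (otherwise 0.102 to 0.141) and that of Trp53inp1 only without IFN-γ + EZH2i replicate 1 (otherwise 0.0681 to 0.205). Psrc1, Btg2, Eda2r, Tnfrsf10b, Polk, Phlda3, Sesn2 and Aen were called in the paired fit, with changes of 0.41 to 0.87. Mdm2, the feedback inhibitor of p53, was at 107, 102 and 88.4 CPM against 117, 139 and 103 CPM and was not called (0.27, paired adjusted p = 0.101), nor were Cdkn1a and Bax.

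The list of oncofetal RNA-binding and growth genes had a median log2 fold change of 0.89. Oncofetal genes are active in the embryo and silent in most adult tissue, which need not hold for each member. Of 11 tested, 6 were called higher in the paired fit (Lin28b, Magel2, Igf2bp3, Trim71, Igf2bp2 and Ndn), 2 of them also in the group-only fit, and none lower. The share of all genes called higher in the paired fit was 3.11%. The count of 6 was 4 without IFN-γ replicate 1. Igf2bp3, an RNA-binding protein that stabilizes growth mRNAs, was at 2.75, 6.34 and 5.23 CPM with IFN-γ and at 34.0, 42.9 and 27.0 CPM with IFN-γ + EZH2i. The lowest treated library exceeded the highest untreated one several-fold. Its change was 2.85 ± 0.36 (adjusted p = 0.00654 group-only and 0.000146 paired). Lin28b, which blocks maturation of let-7 microRNAs, was at 0.402, 0.506 and 0.0926 CPM against 3.80, 2.89 and 1.96 CPM (3.17 ± 0.56, 0.0401 and 0.000412).

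Most neuronal, channel and peptide genes were not called. The share called higher in the paired fit was still above the 3.11% of all genes. Of 166 channel and receptor genes tested, 24 were called higher in the paired fit, 3 of them (Cacna1g, Grin2a and Chrna5) also in the group-only fit, and none lower. The 24 became 10, 15, 17, 17, 9 and 16 without IFN-γ replicates 1, 2 and 3 and IFN-γ + EZH2i replicates 1, 2 and 3. Cacna1g, a T-type calcium channel, was at 2.11, 2.56 and 1.76 CPM against 11.9, 8.11 and 5.17 CPM, without overlap (1.97 ± 0.33, adjusted p = 0.036 group-only and 0.000325 paired). Synaptic and neuronal genes had 7 of 31 called higher and none lower, with Stmn2 and Svop in both fits. Stmn2, a regulator of axonal microtubules, was at 0.737, 0.932 and 0.895 CPM against 7.18, 4.83 and 3.08 CPM (2.54 ± 0.42, 0.0321 and 0.00261). The 7 became 4 without any one IFN-γ replicate. Stmn2 is also among the neuron markers, and the part of neurons was not tested.

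Of 44 peptide and hormone genes, 20 were tested, and 6 were called higher and 1 lower in the paired fit. The shares of all genes were 3.11% and 0.827%. Adcyap1, the gene of the neuropeptide PACAP, held at most 3 counts in each IFN-γ library and was at 3.93, 3.01 and 1.94 CPM with IFN-γ + EZH2i. It was thus at least 39.2-fold higher than the floor (group-mean CPM against 3 counts per library, adjusted p = 0.00552 group-only and 1.43e-05 paired). Sst, the somatostatin gene, was at 4.22, 1.17 and 1.53 CPM against 15.8, 6.47 and 6.31 CPM (2.06 ± 0.68, 0.433 and 0.00143), and Penk, the proenkephalin gene, at 60.2, 42.4 and 21.9 CPM against 147, 84.6 and 61.8 CPM (1.24 ± 0.63, 0.852 and 0.00586). Replicate 1 was highest in both groups for both genes, and the groups did not overlap. The 6 became 4, 3, 3, 4, 3 and 3 when the libraries were left out in the order above.

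Shh, a ligand that patterns the ventral neural tube, was at 6.40, 6.05 and 5.97 CPM with IFN-γ and at 15.3, 14.9 and 19.8 CPM with IFN-γ + EZH2i. The IFN-γ libraries were nearly equal and far below the others. Its change was 1.44 ± 0.18 (adjusted p = 0.00654 group-only and 0.000179 paired), with 0.0538 in the group-only fit without IFN-γ replicate 2. The Wnt receptor gene Fzd6 was at 1.17, 1.17 and 1.20 CPM against 4.44, 5.29 and 3.43 CPM (1.89 ± 0.24, 0.00654 and 0.000491), with 0.056 group-only without IFN-γ replicate 2. Pth1r, the parathyroid hormone receptor, was at 1.84, 3.22 and 2.59 CPM against 10.8, 12.8 and 7.53 CPM (2.02 ± 0.31, 0.0232 and 0.000431). Raet1e, a ligand of the NKG2D receptor from a family of similar genes among which reads may be divided, was at 0.469, 1.28 and 0.756 CPM against 5.43, 6.38 and 5.39 CPM (2.77 ± 0.35, 0.00654 and 0.000353). None of these genes had overlapping groups.

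Matrix and adhesion genes were called mainly in the paired fit, which called 3.11% of all genes higher and 0.827% lower. Of 112 matrix genes tested, 13 were called higher and 2 lower, with none in the group-only fit (18 higher and 3 lower at an unadjusted p under 0.05) and 4 by DESeq2, and the 13 became 6, 4, 6, 9, 4 and 9 when the libraries were left out in the order above. Lamb1, a laminin chain, was at 8.75, 9.48 and 6.37 CPM against 19.7, 22.2 and 13.4 CPM (1.17 ± 0.23, adjusted p = 0.061 group-only and 0.000149 paired), and Col12a1, a fibril-associated collagen, at 19.03, 30.4 and 27.3 CPM against 43.9, 49.7 and 51.6 CPM (0.92 ± 0.19, 0.0872 and 0.000511). Both were separate between groups. Integrin and cadherin genes had 4 of 35 called higher and none lower in the paired fit, and the 4 became 0, 2, 2, 2, 1 and 2. Guidance genes had 10 of 71 higher, with Plxnd1 in both fits, and the 10 became 5, 7, 5, 7, 6 and 7. The secreted BMP and activin antagonist Fst was at 20.2, 30.4 and 8.08 CPM against 42.8, 59.6 and 32.3 CPM (1.20 ± 0.42, 0.488 and 0.00249), without overlap.

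Few interferon effectors outside the MHC and chemokine families were called with EZH2i. Of 51 tested, Gbp2 alone was called higher in the paired fit, none was called lower, and the median log2 fold change was 0.07. The paired fit called 3.11% of all genes higher. At an unadjusted p under 0.05 it had 6 of the 51 higher and 1 lower. With the 6 libraries alone the paired fit called 5 higher. Gbp2, a guanylate-binding protein of a family of similar genes, was at 5950, 5945 and 5306 CPM with IFN-γ and at 7695, 8614 and 8506 CPM with both, without overlap (0.53 ± 0.15, adjusted p = 0.26 group-only and 0.0274 paired). Its paired call was kept only without IFN-γ + EZH2i replicate 1, with 0.0995 to 0.123 without any other library. Of 23 cholesterol synthesis genes, Msmo1 alone was called in the paired fit, at 183, 201 and 198 CPM against 237, 258 and 260 CPM (0.38, 0.201 and 0.0211). Its paired call too was kept only without IFN-γ + EZH2i replicate 1 (0.0556 to 0.149 otherwise). At an unadjusted p under 0.05 the paired fit had 8 of the 23 higher and 1 lower, and 18 log2 fold changes were above 0. With the 6 libraries alone it called 2 higher.

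The astrocyte gene Gfap was at 121, 101 and 338 CPM with IFN-γ and at 264, 238 and 600 CPM with IFN-γ + EZH2i. IFN-γ replicate 3 lay above 2 of the treated libraries, so the groups overlapped, while each pair rose. The change was 0.97 ± 0.57 (adjusted p = 0.921 group-only and 0.000578 paired, called without any one library). Aqp4 and Aldoc had changes of 0.55 and 0.52, with an adjusted p of 0.9994 and 0.861 group-only and 0.0222 and 0.0175 paired, and both overlapped between groups. The paired call was kept in 2 of 6 cases for Aqp4 and in 1 of 6 for Aldoc when one library was left out.

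A few of the rising genes lay next to a TF gene that rose. Of the 39 genes of the group-only fit outside the families, 5 (12.8%) started within 100 kb of the start of a called TF gene, against 0.196% of 17902 tested genes outside the families. In the paired fit it was 18 of 482 (3.73%) and none of the 144 lower genes, against 0.782%. Chchd7, a mitochondrial protein gene 0.5 kb from Plag1, was at 3.25, 4.93 and 4.20 CPM against 9.62, 11.2 and 10.4 CPM, without overlap (1.33 ± 0.23, adjusted p = 0.0401 group-only). The noncoding Foxl2os (chr9:98949781-98955299) begins beside Foxl2 and held at most 3 counts in each IFN-γ library, against 1.24, 2.61 and 1.04 CPM with both, at least 21.6-fold above the floor (0.00654 group-only, 0.0536 without IFN-γ replicate 2). Without a stated strand setting, reads of Foxl2os and of its antisense neighbor cannot be told apart. The same may hold for other noncoding genes near a called TF gene. Among these are Vax2os and Gm47061 of the 5, and Hoxd3os1, Dlx6os1 and Fendrr of the 18. The shares above may therefore hold reads of the TF genes themselves. Vax2os, Foxl2os and Gm47061 had means of 0.0112, 0.02 and 0.0266 CPM with IFN-γ, and Hoxd3os1 and Dlx6os1 of 0.00514 and 0 CPM. Genes this low with IFN-γ passed the filter on low counts through other libraries and could be called only higher. For this reason too, the shares do not compare evenly with those of all tested genes.

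Nearly all of these genes had the same direction at rest. Of the 157 genes lower in the paired fit, 156 (99.4%) had a negative log2 fold change without IFN-γ, against 48.9% of all genes, with a median of -0.35. The Ctr and EZH2i libraries lie outside the contrast that chose the genes. They are not independent of the choice, because all 12 libraries shared the fit, its spread and its replicate terms. The group-only edgeR fit called no gene lower at rest (0%), with 353 at an unadjusted p under 0.05, and called 77 higher (0.405%). Of these 77, 72 were among the 591. With the replicate block 114 of the 18995 genes were lower at rest, among them 45 of the 157. Same-numbered Ctr and EZH2i libraries correlated at 0.583, 0.0929 and 0.608. The lowest of these was under the limit of 0.1 used for pairing, so calls with and without IFN-γ in different fits are not comparable. The myelin list had a median of -0.48 at rest: Mbp had means of 811 CPM in Ctr and 401 CPM in EZH2i, and Enpp6 of 132 and 70.9 CPM. All 20 falling genes named by rule were negative at rest, between -1.02 and -0.07. The 12 rising genes were all positive, between 1.36 and 6.83, and 9 of them were called at rest in the group-only fit.

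No gene was shown to respond to EZH2i differently with and without IFN-γ. The interaction had 0 of 18995 genes (0%) at an adjusted p under 0.05 in the group-only fit, the paired fit and DESeq2, and 127 (0.669%) at an unadjusted p under 0.05 in the group-only fit and 545 in the paired fit. Of the 157 lower genes, 140 changed more with IFN-γ than at rest, but they were chosen on the IFN-γ contrast, so this comparison is not even-handed. For Gpr17 the interaction was -0.58 ± 0.41 in the group-only fit (unadjusted p = 0.184) and -0.55 ± 0.20 in the paired fit (unadjusted p = 0.0167, adjusted p = 1), with means of 1621 CPM in Ctr and 1218 CPM in EZH2i. For Gbp2 it was 0.67 ± 0.21 (unadjusted p = 0.0075, adjusted p = 0.9999), with resting means of 8.43 and 7.60 CPM.

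**Figure D5:**
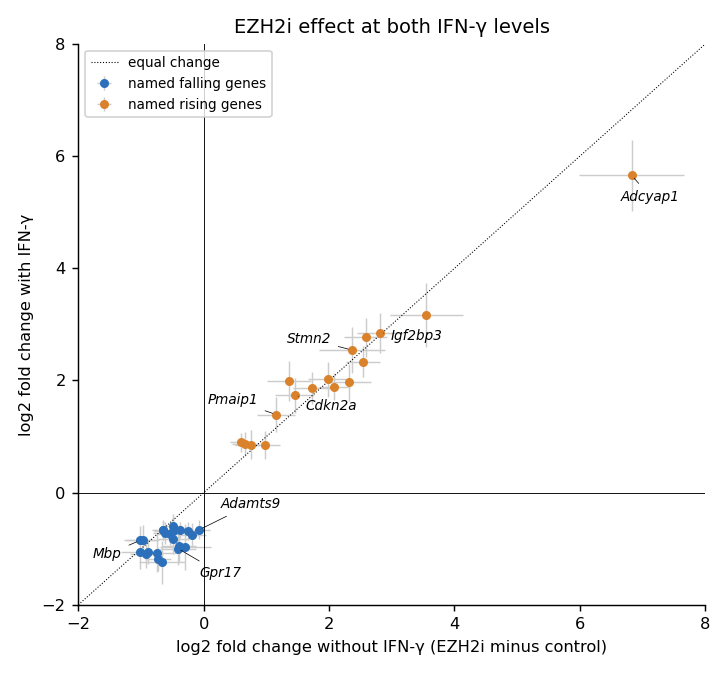
Group-only log2 fold change of EZH2i at rest (horizontal) and with IFN-γ (vertical) for named falling genes (blue) and rising genes (orange), with bars of 1 SE and a dotted line of equal change. The falling genes lie in the lower left quadrant between -1.25 and 0 on the vertical axis, and Adcyap1 lies furthest out, at 6.83 and 5.66.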

How the data were processed

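RNA-seq of 12 libraries, 3 in each of 4 groups, was made from total RNA with a stranded kit. The authors quantified reads with Salmon 0.8.2 (per the labels, which also list STAR, DESeq2, mm10 and GRCm38) and deposited, for each transcript, its estimated count and its TPM, where TPM corrects for length and sums to a fixed total per library. Whether the counting used strand is not given in the sources used here. The 2 further tables deposited by the authors hold log2 fold changes and p-values of DESeq2 and were not used.

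Estimated counts of 141862 transcripts, all matched to a GENCODE annotation of GRCm38, were summed over 55536 genes and rounded. Genes were filtered with edgeR's default, scaled with TMM factors and tested with the quasi-likelihood test of edgeR 4.0.16 in R 4.3.3, in one fit of the 12 libraries with group as the only term. The Benjamini-Hochberg adjustment ran over 18995 genes. The second fit adds the replicate number as a block. The labels give each replicate a different litter, and deviations from the group means correlated at 0.741, 0.638 and 0.748 between same-numbered IFN-γ and IFN-γ + EZH2i libraries, so these were taken as paired. For Ctr and EZH2i the values were 0.583, 0.0929 and 0.608, and the lowest was under the limit of 0.1. Resting calls therefore come from the fit without the block unless stated, although the second fit applies the block to all 12 libraries. Levels are TMM CPM, as mean ± SD where so stated, and a group with at most 3 counts in each library is at the detection floor. Median, low and high depth are given with the results, and genes of few counts are the least precise. The scripts were tested on simulated data.

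Genes outside the TF, MHC and chemokine families were named by rule: coding genes with at least 1 CPM in a group and no overlap between groups, the 20 largest falls (group-only calls first, then paired calls) and the 12 largest group-only rises, up to 4 called members per gene list, fixed markers, and up to 3 noncoding genes per direction. Other genes were named as members of a list. Genes, lists and the comparison were chosen with earlier results of these data known, and the ribosome biogenesis list was drawn up with gene values in view. Alternatives were DESeq2 1.42.0, RLE factors, other filters, mitochondrial and rRNA genes left out, the 6 libraries alone, a 2-fold limit and each library left out. Promoter windows of RefSeq (GRCm38.p6) matched 77.3% of the tested coding genes, too few to compare CG content between sets of genes, so that comparison is void.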

Additional observations from a re-analysis of the deposited data

How the results depend on the processing

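Counts of genes called with EZH2i under IFN-γ depended on the fit more than on scaling. With group as the only term, 66 genes were higher and 1 lower. DESeq2 gave 254 and 27, at least 10 counts in each library gave 20 and 0, the 6 libraries alone gave 7 and 0, and no filter on low counts gave 2 lower. The replicate block gave 591 and 157, and with the 6 libraries alone 935 and 783. Leaving out each library gave 10 to 63 higher and 0 to 2 lower. Settings within the replicate block were chosen after seeing the data: there DESeq2 gave 309 lower, no filter on low counts 326 lower, a 2-fold limit 256 higher and 12 lower, and leaving out IFN-γ replicates 1, 2 and 3 and IFN-γ + EZH2i replicates 1, 2 and 3 in turn 270, 281, 380, 407, 252 and 346 higher and 20, 52, 105, 189, 22 and 67 lower. The number of genes with an interaction stayed at 0 under all 13 alternatives that gave one. Of the log2 fold changes of named genes, 6 values reversed, all in genes without a call: with one library left out, Eed ranged from -0.062 to 0.066 (above 0 without IFN-γ replicate 2, and 0.045 without IFN-γ + EZH2i replicate 3), Suz12 from -0.184 to 0.048 (without IFN-γ + EZH2i replicate 1), Sox10 from -1.13 to 0.19 (without IFN-γ replicate 1) and Cspg4 from -0.142 (without IFN-γ + EZH2i replicate 1; -0.113 without IFN-γ replicate 2) to 0.255. Another 950 kept direction and side of the threshold, 156 passed it and 81 lost it. The median change of all genes stayed between -0.02 and 0.01 under these settings. The cause of the differences between fits was not tested. Depth limits genes near 3 counts per library.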
